A study of Mus musculus with 9 samples.

Results

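Immediate early genes are switched on within minutes of a stimulus, without new protein synthesis, and are also known to respond to enzymatic digestion of tissue. Here 10 of them, Fos, Fosb, Jun, Junb, Jund, Egr1, Atf3, Ier2, Dusp1 and Zfp36, were taken by name out of the 27998 genes in a single-cell RNA-seq count table of mouse liver, and followed in every cell class and library. All 10 were in the table. The question asked of the data was whether a library that was high or low for these genes was so in all of its cell classes. The rule named the genes and used no measured value, but they were named with earlier results of these data known.

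The table held 9 libraries of C57BL/6 mouse liver, 1 per mouse. All mice carried the transactivator rtTA, with EGFP, at ROSA26, which activates tet-controlled transgenes when doxycycline is given. The 2 WT mice lacked tetYAP and ate doxycycline food for 7 days. The 4 YAP3d and 3 YAP7d mice also carried tetYAP, a transgene for an active form of the co-activator YAP, and ate doxycycline food for 3 and 7 days. According to the study's methods the rtTA was freed by Alb-Cre, so that induction was meant for hepatocytes, whereas the cells described below are mostly other cells of the liver. Because WT mice had 7 days of doxycycline, YAP3d and WT differ in feeding time as well as in the transgene. Livers were minced and digested with dispase and collagenase at 37 °C with shaking.

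Most of the members are transcription factors. Fos, Fosb, Jun, Junb and Jund pair through leucine zippers to form AP-1, Egr1 is a zinc finger factor, and Atf3 is a stress-induced factor of the ATF/CREB family. Ier2 is a small immediate early nuclear protein. Dusp1 encodes a phosphatase that switches off MAP kinases, and Zfp36 (tristetraprolin) binds AU-rich messages and promotes their decay, so both act as brakes on the same response. MAP kinases reach these genes mainly through serum response factor at CArG boxes and through CREB at cAMP response elements (CREs). In GRCm38.p6 the members other than Egr1 are Atf3 at chr1:191170296-191183333, Jun at chr4:95049036-95052222, Fosb at chr7:19302696-19310118, Zfp36 at chr7:28376784-28379228, Jund at chr8:70697739-70700616, Ier2 at chr8:84661331-84662852, Junb at chr8:84976909-84978748, Fos at chr12:85473890-85477274 and Dusp1 at chr17:26505591-26508472.

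The RefSeq tables (GRCm38.p6) held a promoter for 8 of the 10 members, all but Ier2 and Egr1. The 3 below give the 250 bases before the annotated start, 5′ to 3′. Dusp1 is shown for its full CRE, Zfp36 for its CArG box and Fos, the first member described below, for its CRE half-sites, which are also found in promoters not shown. Capitals mark the CRE, its half-site TGACG, or the CArG box. Fos lies at chr12:85473640-85473889 on the plus strand, Dusp1 at chr17:26508473-26508722 on the minus strand and Zfp36 at chr7:28379229-28379478 on the minus strand.
Fos: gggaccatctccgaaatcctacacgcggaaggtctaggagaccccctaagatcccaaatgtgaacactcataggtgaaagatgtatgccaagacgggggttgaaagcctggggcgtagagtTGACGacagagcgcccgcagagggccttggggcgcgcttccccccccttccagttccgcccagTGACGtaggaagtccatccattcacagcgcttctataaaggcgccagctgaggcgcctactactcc
Dusp1: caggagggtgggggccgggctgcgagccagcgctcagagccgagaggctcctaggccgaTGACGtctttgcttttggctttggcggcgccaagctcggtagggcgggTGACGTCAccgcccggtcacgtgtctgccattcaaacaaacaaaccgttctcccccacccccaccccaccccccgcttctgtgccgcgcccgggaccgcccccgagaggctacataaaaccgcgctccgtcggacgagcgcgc
Zfp36: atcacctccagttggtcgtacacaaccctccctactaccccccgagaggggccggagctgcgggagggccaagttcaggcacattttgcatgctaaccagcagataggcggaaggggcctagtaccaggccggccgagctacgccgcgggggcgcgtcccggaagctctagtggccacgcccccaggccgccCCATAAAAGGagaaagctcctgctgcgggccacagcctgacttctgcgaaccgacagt

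On both strands of the 8 member promoters, read over 300 bases that end 50 bases past the start, the full CRE, TGACGTCA, was found in 1 promoter (Dusp1), against 1.88% of the 27025 promoters searched. The CArG box was found in 1 promoter (Zfp36), against 1.57%. The half-site TGACG, which overlaps the CRE, was found in 5 promoters (Atf3, Fosb, Junb, Fos and Dusp1), against 21.0%. The AP-1 site TGANTCA was found in 0 of the 8, against 7.93% of all promoters. The EGR site GCGNGGGCG was in 2 (Fosb and Zfp36), against 5.55%, the TATA box TATAAA in 2 (Junb and Fos), against 14.2%, and a loose NF-kB pattern in 6, against 50.4%. A match describes letters in this window and does not show that a factor binds there.

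The libraries held between 293 and 2554 cells and between 1314878 and 25056881 UMIs (random tags that let copies of the same captured RNA be counted once), over 8562 cells in all, of which 8527 were kept. These were grouped into 11 classes that resemble known cell types, and 564 cells stayed unnamed. Of the unnamed cells, 520 formed cluster 8, led by Dcn, Clec3b and Mgp. It had raised levels of 12 of 12 endothelial markers, but 3 of its leading genes were markers of other cell types. The endothelial cell-like class below does not hold these cells. At a lower clustering resolution the cluster led by Dcn held 23 cells, and the largest endothelial cell-like cluster held 1554 cells instead of 934. Each of 6 classes held at least 10 cells in all 9 libraries and could be tested, with 6012 cells in all: endothelial cell-like, NK cell-like, T cell-like, B cell-like, macrophage-like and conventional dendritic cell-like. Their clusters had raised levels of 12 of 12 endothelial, 12 of 12 macrophage, 12 of 12 B cell, 9 and 11 of 12 NK cell, 6 to 9 of 9 T cell and 5 and 7 of 12 conventional dendritic cell markers. Levels are CPM, the UMIs of a gene relative to all UMIs of that class and library, scaled by TMM, so that a level depends on the other genes of the same class. WT replicate 2, YAP3d replicate 4 and YAP7d replicate 3, the only libraries with over 1000 cells, deviated together from their groups, with correlations of 0.62 to 0.74 across genes. The 2 WT libraries deviate from their mean by opposite amounts, so WT replicate 1 stood at -0.63 and -0.62 with the YAP libraries named. Which WT library deviates cannot be told from these values. The predicted gene Gm10709 was high in YAP3d replicates 1 and 2 and in all YAP7d libraries, and low in the others. Of the cell barcodes, 46 occurred in more than 1 library.

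In YAP7d mice members were called lower than in WT mice in 2 of 6 classes, endothelial cell-like and NK cell-like cells, and 52 of the 59 changes measured over the 6 classes were below 0. All 10 members fell in endothelial cell-like cells, where 8.46% of all genes tested were called lower, by log2 changes between -2.17 (Egr1) and -0.97 (Atf3). In NK cell-like cells 5 of 9 fell (Fos, Jun, Junb, Jund and Dusp1), where 3.3% of genes did. In macrophage-like, T cell-like, B cell-like and conventional dendritic cell-like cells 0 of 10 passed the test, against 0.98%, 0.0%, 0.0445% and 0.0% of genes called lower, and the median changes were -1.24, -0.81, -0.60 and -0.36. With a term for libraries with Gm10709 transcripts, a gene high in all YAP7d and low in both WT libraries, the counts became 4 in endothelial cell-like cells, where 1.46% of genes were called lower, and 0 in NK cell-like cells, where 0.0% were. The medians were then -1.04 against -1.48 without the term, and -0.91 against -1.20. In macrophage-like and conventional dendritic cell-like cells the term brought the medians above 0, to 0.50 and 0.34. The plot of log2 changes by class shows each member with its error.

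**Figure D1:**
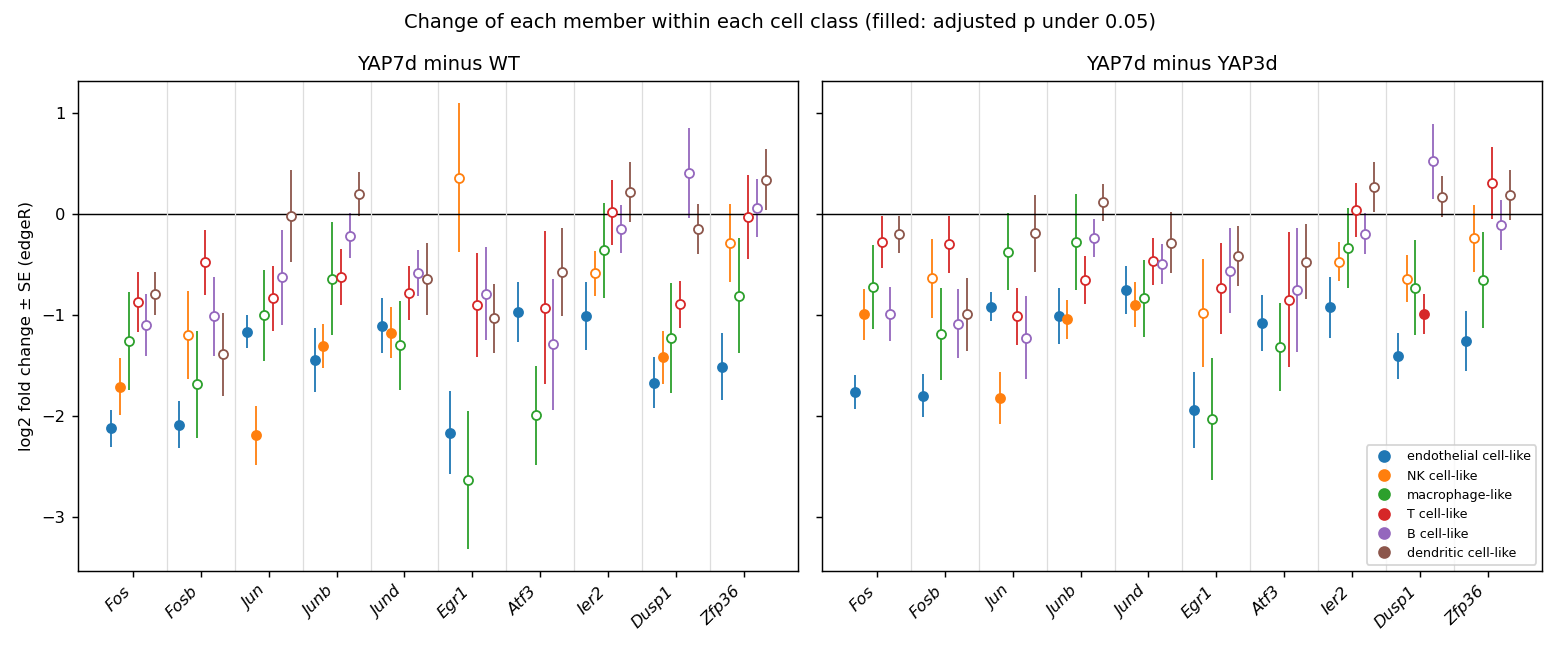
Log2 fold change (edgeR) of each member within 6 cell classes, for YAP7d against WT and YAP7d against YAP3d, with bars of 1 SE and filled points where the adjusted p was under 0.05. Endothelial cell-like points are filled for all 10 members, and the conventional dendritic cell-like points lie around 0 for Junb, Jun, Ier2, Dusp1 and Zfp36.

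Fos, the founding AP-1 partner, had 1695 and 1924 CPM in endothelial cell-like cells of the WT libraries. In the YAP3d libraries it had 1700.4, 1139, 1176 and 1504 CPM, and in the YAP7d libraries 317, 412 and 433 CPM. The YAP7d libraries lay below all WT and YAP3d libraries, and the means were 1809.6 ± 162 (SD, n = 2), 1379.9 ± 269.5 (SD, n = 4) and 387 ± 61.5 CPM (SD, n = 3). Its log2 change from WT to YAP7d was -2.12 (SE 0.19, edgeR adjusted p 2.8e-06).

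Fosb followed Fos in these cells. It had 495 and 354 CPM in WT, 405, 291, 281 and 373 CPM in YAP3d, and 73.8, 111 and 94.1 CPM in YAP7d, again with no overlap between YAP7d and the other groups. Its log2 change against WT was -2.09 (SE 0.23, edgeR adjusted p 1.5e-05).

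The Jun partners of AP-1 had smaller changes. In endothelial cell-like cells Jun had 1374 and 1564 CPM in WT, 1280.0, 973, 1172 and 1414 CPM in YAP3d, and 617, 647 and 583 CPM in YAP7d. The 3 YAP7d values were close together and below every other library, and the log2 change against WT was -1.17 (SE 0.16, edgeR adjusted p 1.1e-04). Junb and Jund changed by -1.45 (SE 0.32) and -1.10 (SE 0.27), with edgeR adjusted p of 0.0039 and 0.0085. Junb in YAP7d replicate 3 had 689 CPM, above the 677 CPM of YAP3d replicate 2, so that YAP7d and YAP3d overlapped.

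Egr1 had 503 and 485 CPM in endothelial cell-like cells of WT, 364, 251, 249 and 727 CPM in YAP3d, and 156, 38.6 and 111 CPM in YAP7d. YAP7d replicate 2 was lowest and YAP3d replicate 4 highest, and the YAP7d group did not overlap the others. The log2 change against WT was -2.17 (SE 0.41, edgeR adjusted p 0.0013). Ier2 and Atf3 had the smallest changes, of -1.01 (SE 0.34) and -0.97 (SE 0.30), with edgeR adjusted p of 0.048 and 0.030.

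The brakes on the response fell with the factors. Dusp1 had 913 and 909 CPM in endothelial cell-like cells of WT, 765, 672, 598 and 923 CPM in YAP3d, and 135, 317 and 335 CPM in YAP7d. Zfp36 had 382 and 324 CPM in WT, 261, 211, 207 and 433 CPM in YAP3d, and 47.8, 111 and 161 CPM in YAP7d. Both were lower in every YAP7d library than in any other library, and their log2 changes against WT were -1.67 (SE 0.25, edgeR adjusted p 2.0e-04) and -1.51 (SE 0.33, edgeR adjusted p 0.0041).

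**Figure D2:**
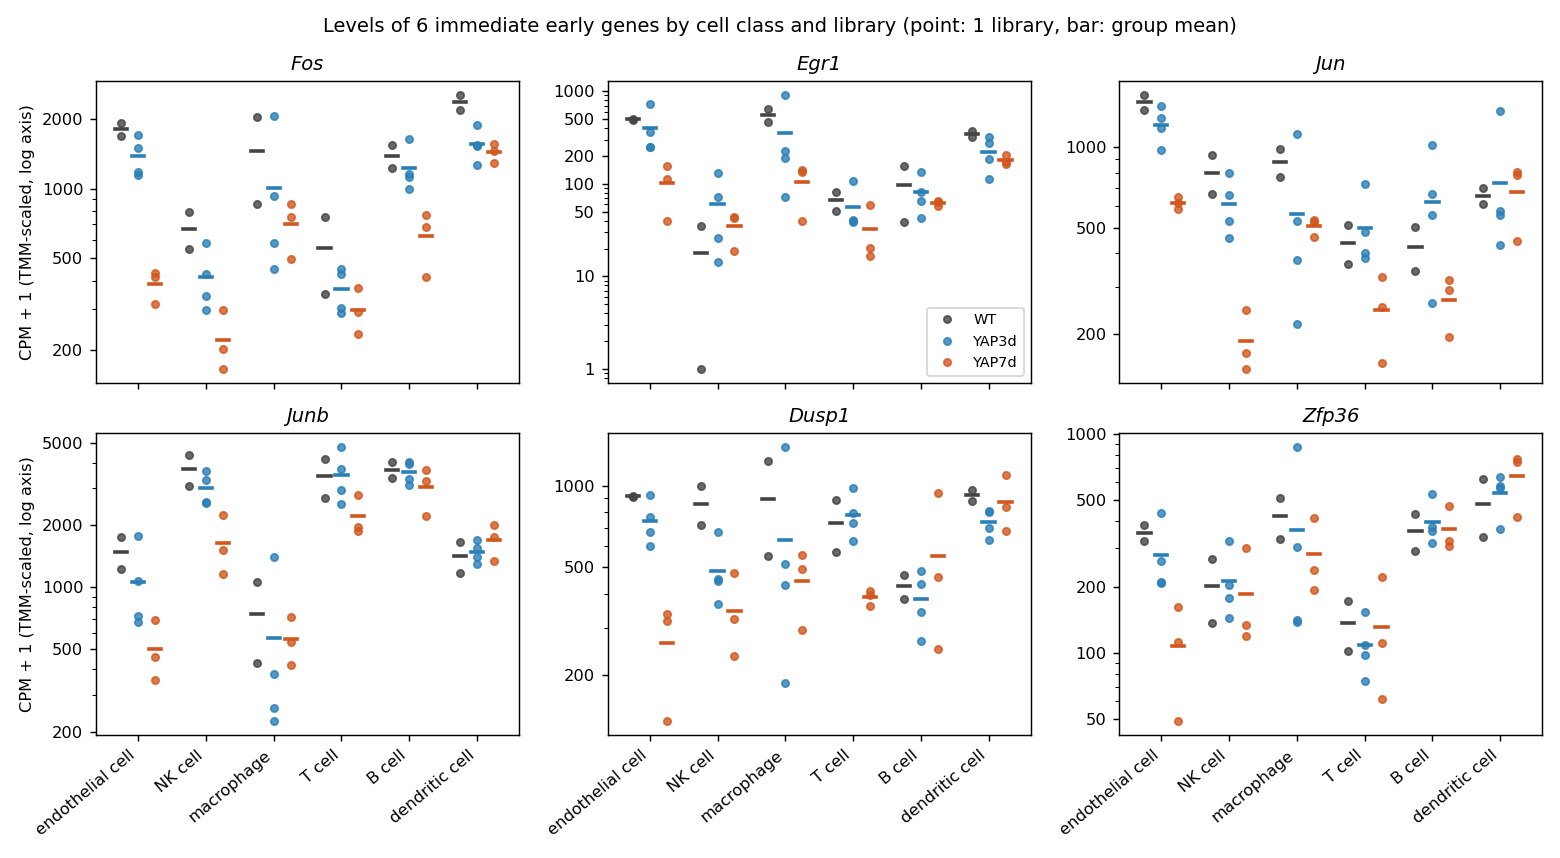
Levels of 6 members (CPM plus 1, TMM-scaled, log axis) by cell class, with 1 point per library and a bar at each group mean for WT (n = 2), YAP3d (n = 4) and YAP7d (n = 3). The YAP7d points of Fos, Jun, Egr1, Dusp1 and Zfp36 in endothelial cell-like cells lie below the other points of that class, while in conventional dendritic cell-like cells those of Junb, Jun, Dusp1 and Zfp36 overlap the others.

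Over the 6492 genes tested in endothelial cell-like cells the median log2 change was -0.01, against -1.48 for the members. The groups of YAP7d and WT did not overlap for 9 of the 9 members tested in every class, against 22.7% of 1830 genes that were lower in this way. The same number of members, 10 of 10, was called lower against YAP3d in these cells, where 7.92% of genes were, with a median of -1.17. With cells thinned to 1000 UMIs 3 of 9 were called lower against YAP3d, where 6.23% of genes were, and with the Gm10709 term 5 were (3.47% of genes). Without WT replicate 2, 6 members were called lower against WT, where 4.82% of genes were, and with cells thinned to 1000 UMIs 4 of 9 were, where 7.35% of the 1524 genes that passed the filter were.

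The make-up of the endothelial cell-like class also differed between groups. Cluster 16, led by Mest, Fabp4 and Pcdh17, held 70.8, 78.3 and 87.5% of the class in the YAP7d libraries, 4 of 40 and 2 of 533 cells in YAP3d replicates 2 and 4 and 0 in the other YAP3d and both WT libraries. Cluster 4, led by Clec4g and Igfbp7, held 39.4 and 79.6% in WT, 43.8, 52.5, 36.3 and 82.9% in YAP3d and 8.33, 8.70 and 7.81% in YAP7d. Within cluster 4 the summed members stood at 10375 and 9356 CPM in WT and at 4189, 1044 and 4001 CPM in YAP7d, the latter from 2, 2 and 5 cells. Within cluster 16 they stood at 2416, 3334 and 3091 CPM in YAP7d and at 5799 and 9609 CPM in YAP3d replicates 2 and 4, with 4 and 2 cells. Cluster 3, led by Erg and Dusp3 and with a median of 1755.5 UMIs per cell, was low in all libraries, between 437 and 1348 CPM, and made up 56.9% of the class in WT replicate 1 but 10.2% in WT replicate 2, between 5.07 and 56.6% in single YAP3d libraries and between 1.56 and 20.8% in those of YAP7d.

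**Figure D3:**
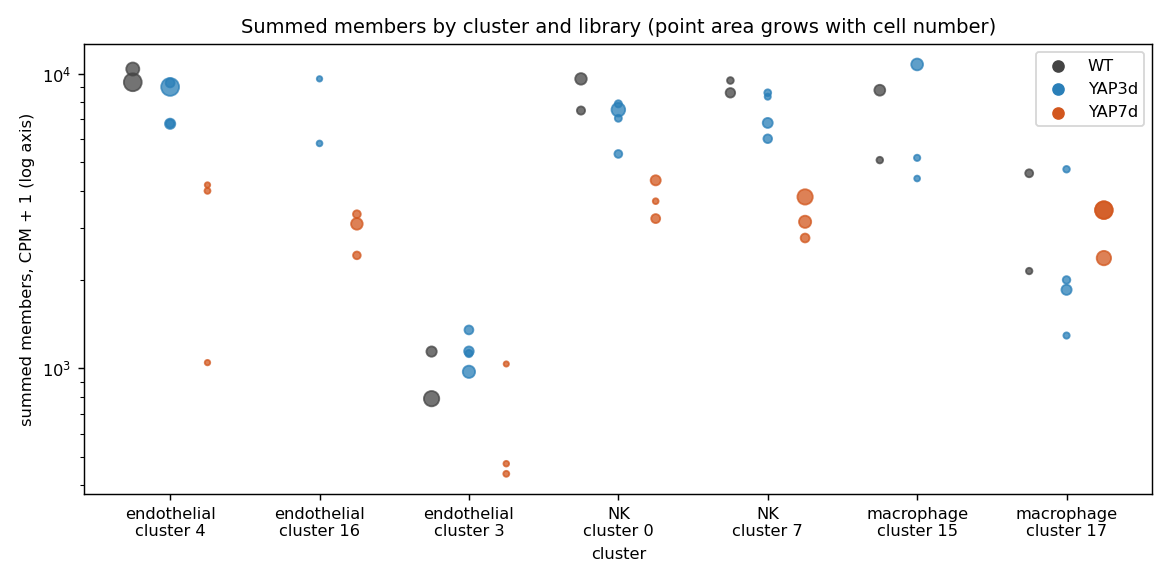
Summed level of the 10 members (CPM plus 1, log axis) in 7 clusters of 3 classes, with 1 point per library whose area grows with its number of cells, for WT, YAP3d and YAP7d. In both NK cell-like clusters the YAP7d points lie below all others, whereas in macrophage-like cluster 17 they lie among them.

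Other values moved with the YAP7d group in the endothelial cell-like class. The summed level of 44 proliferation genes was 2423 to 2916 CPM in WT, 2781 to 4228 CPM in YAP3d and 6300 to 8192 CPM in YAP7d, and 35 of the 38 tested were called higher in YAP7d than in WT, where 10.1% of all genes were. The median depth was 2209 to 5248 UMIs per cell in WT and 7404 to 13760 in YAP7d. The summed level of the endothelial cell markers was 15503 to 18246 CPM in WT, 14537 to 17188 CPM in YAP3d and 8541 to 8906 CPM in YAP7d. That of the erythroid cell markers was 309 to 3111 CPM in WT, 26.5 to 974 CPM in YAP3d and 31.6 to 49.0 CPM in YAP7d, and that of the mesenchymal cell markers 352 to 604 CPM, 276 to 632 CPM and 113 to 188 CPM. In cells without a UMI of Mki67, Top2a, Cdk1, Birc5 or Ube2c, a selection added after seeing the data, 8 members were called lower, where 5.2% of genes were, with a median of -1.54, and YAP7d replicates 1 and 2 then had 9 and 8 cells. The part of depth, cluster and these marker levels in the result was not tested. Summed counts also cannot tell fewer cells with the RNA from less RNA per cell.

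In NK cell-like cells, the other class with members called, Jun had 928 and 668 CPM in WT, 801, 529.9, 660.4 and 455 CPM in YAP3d, and 244, 169.8 and 147 CPM in YAP7d, with no overlap of YAP7d with either group. Its log2 change against WT was -2.19 (SE 0.29, edgeR adjusted p 5.3e-04), which was the largest fall of the 9 members in this class. Fos had 545 and 787 CPM in WT, 341, 299, 579.5 and 427 CPM in YAP3d, and 165, 202 and 296 CPM in YAP7d, where YAP7d lay below all other libraries, for a log2 change of -1.71 (SE 0.28, edgeR adjusted p 0.0019).

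The other 3 members called in NK cell-like cells were Dusp1, Junb and Jund. Their log2 changes were -1.42 (SE 0.26), -1.31 (SE 0.22) and -1.18 (SE 0.25), with edgeR adjusted p of 0.0043, 0.0021 and 0.011. Fosb, Ier2 and Zfp36 stood at -1.20, -0.59 and -0.29 and did not pass, and Atf3 was too low to be tested. Egr1 stood at 0.36 (SE 0.74) from levels of 0 and 33.7 CPM in WT and 18, 41.3 and 42.9 CPM in YAP7d, so low that no direction can be read.

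Over the 4240 genes tested in NK cell-like cells the median change was -0.01, against -1.20 for the members. YAP7d lay below WT without overlap for 6 of 9 members, against 11.0% of genes. Without WT replicate 2 a single member was called instead of 5, where 0.568% of genes were called lower. With the Gm10709 term 0 members and 0 of the 4240 genes were called, and the median of the members was -0.91. The 2 NK cell-like clusters held different shares of the class, cluster 7 holding 32.3 and 37.5% in WT, 31.7 to 58.1% in YAP3d and 69.2 to 87.1% in YAP7d. In cluster 0, led by Gzmc and Cd7, the summed members stood at 7500 and 9606 CPM in WT and 3221, 3691 and 4345 CPM in YAP7d. In cluster 7, led by Klra4 and Klra8, they stood at 9485 and 8614 CPM in WT and 3141, 2767 and 3816 CPM in YAP7d, so the lower level was present in both. Some of these values rest on few cells, with 4 in cluster 0 of YAP7d replicate 2 and 10 in cluster 7 of WT replicate 1. Proliferation genes rose in this class too, 11 of 32 being called higher (3.94% of all genes), and the median depth was 4031 to 4215 UMIs per cell in WT and 5606 to 8418 in YAP7d. The summed level of the T cell markers in this class was 1597 to 1703 CPM in WT, 1304 to 2065 CPM in YAP3d and 154 to 462 CPM in YAP7d. That of the macrophage markers was 73.4 to 182 CPM in WT, 65.0 to 179 CPM in YAP3d and 218 to 634 CPM in YAP7d, and that of the endothelial cell markers 184 to 420 CPM, 71.5 to 611 CPM and 68.2 to 94.0 CPM. The part of these values in the result was not tested.

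Against YAP3d, 4 of 9 members were called lower in NK cell-like cells (5.4% of genes), namely Jun, Junb, Jund and Fos, with log2 changes of -1.82, -1.04, -0.90 and -0.995. Over 23 alternatives this count ran from 2 to 6 and the median of the members from -1.16 to -0.59. In macrophage-like, B cell-like and conventional dendritic cell-like cells 0 of 10 were called against YAP3d by edgeR, where 0.372%, 0.0% and 0.0249% of genes were, and 4, 4 and 1 members had an unadjusted p under 0.05, as had 12.8%, 7.21% and 8.93% of genes. Without YAP3d replicate 2, 4 macrophage-like members were called lower, where 3.55% of genes were, and without YAP3d replicate 4 the median there was 0.04. In T cell-like cells 1 of 10 was, against 0.0929% of genes: Dusp1, with 569 and 887 CPM in WT, 977, 626, 789 and 725 CPM in YAP3d and 408, 359 and 393 CPM in YAP7d. YAP7d lay below all other libraries, and its log2 change against YAP3d was -0.99 (SE 0.20, edgeR adjusted p 0.044). When single libraries were left out, 0 members were called in T cell-like cells in 7 of 9 fits. In these cells cluster 2 held 41.2 to 80.2% of the class in the YAP3d libraries and 21.3 to 38.9% in the YAP7d libraries, cluster 13 held 10.1 to 12.3% and 19.0 to 38.3%, and 14 of 42 proliferation genes were called higher in YAP7d than in YAP3d, where 0.665% of all genes were. The part of cluster and proliferation in the Dusp1 difference was not tested.

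In macrophage-like cells the median change from WT to YAP7d was -1.24, beside -1.20 in NK cell-like cells, and from YAP3d to YAP7d it was -0.73, beside -0.90. Over 23 alternatives the macrophage-like median against WT ran from -1.53 to 0.50. It was 0.50 with the Gm10709 term, so its direction turned, whereas that of NK cell-like cells stood at -0.91. Egr1 had 466 and 645 CPM in WT, 224, 71.8, 190.3 and 914 CPM in YAP3d, and 38.5, 131 and 140.4 CPM in YAP7d. The YAP3d libraries ranged from below most YAP7d libraries to above WT, and the log2 change from WT to YAP7d was -2.63 (SE 0.69, edgeR adjusted p 0.062). Atf3 stood at -1.99 (SE 0.49, edgeR adjusted p 0.050), just short of the threshold. All 10 members stood below 0 and 7 had an unadjusted p under 0.05, as had 17.2% of genes, while DESeq2 called 1 of 10 lower, against 1.32% of genes.

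YAP7d lay below WT without overlap for 5 of 9 members, against 9.23% of genes. In this class the count changed when a single YAP3d library was left out, although such a library is in neither group of this contrast. The fit estimates the spread over all groups. Without YAP3d replicate 2, 6 members were called lower against WT, where 4.06% of genes were, and without YAP3d replicate 4, 5 were, where 3.03% of genes were. The groups also differed in cluster: cluster 15, led by C6, Fcna and Folr2, held 32.1 and 85.5% of macrophage-like cells in WT, 36.4, 0, 30.4 and 86.6% in YAP3d and 0 in all YAP7d libraries, and cluster 17, led by Fabp7, Marco and Cd5l, held the rest. Within cluster 17 the summed members stood at 4591 and 2137 CPM in WT, 1290, 1845, 1993 and 4738 CPM in YAP3d and 2365, 3444 and 3440 CPM in YAP7d, which overlap fully. In cluster 15 the WT libraries stood at 5089 and 8791 CPM. The median depth of macrophage-like cells was 1903 to 7028 UMIs in WT, 1305 to 5877 in YAP3d and 9132 to 23064 in YAP7d. A UMI of Mki67, Top2a, Cdk1, Birc5 or Ube2c was found in 7.14 and 23.6% of these cells in WT, 36.4, 67.5, 21.7 and 19.4% in YAP3d and 74.2, 73.4 and 86.3% in YAP7d, without adjustment for depth. The summed level of the endothelial cell markers here was 936 to 1041 CPM in WT, 448 to 1235 CPM in YAP3d and 371 to 379 CPM in YAP7d. The part of these values in the result was not tested.

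T cell-like, B cell-like and conventional dendritic cell-like cells had smaller median changes. In B cell-like cells Fos had 1228 and 1541 CPM in WT, 1642, 1154, 1127 and 998 CPM in YAP3d and 771, 684 and 415 CPM in YAP7d, which lay below every other library, with a log2 change of -1.10 (SE 0.31, edgeR adjusted p 0.34). Of the members there, 3 of 10 had an unadjusted p under 0.05, as had 4.36% of genes. In this class the summed level of the endothelial cell markers was 354 to 606 CPM in WT, 228 to 736 CPM in YAP3d and 200 to 241 CPM in YAP7d, that of the conventional dendritic cell markers 826 to 1070 CPM, 686 to 1201 CPM and 374 to 732 CPM, and that of the macrophage markers 48.3 to 236 CPM, 36.9 to 176 CPM and 267 to 714 CPM. Their part in the Fos values was not tested. In T cell-like cells Fos stood at -0.87 (SE 0.30, edgeR adjusted p 0.38), and 5 of 10 members had an unadjusted p under 0.05, as had 8.51% of genes. DESeq2 called 0 members in T cell-like, B cell-like and conventional dendritic cell-like cells, where it called 0.139%, 0.267% and 0.323% of genes lower. YAP7d lay below WT without overlap for 4 of 9 members in T cell-like cells (11.0% of genes) and for 3 of 9 in B cell-like cells (10.1%).

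Conventional dendritic cell-like cells had the smallest median change of the 6 classes. Fos had 2185 and 2546 CPM in WT, 1532, 1263, 1888 and 1546 CPM in YAP3d, and 1564, 1290.2 and 1458 CPM in YAP7d, so that YAP7d lay below WT but among YAP3d. Junb had 1166 and 1650.2 CPM in WT and 1996, 1331 and 1755 CPM in YAP7d, for a log2 change of 0.20 (SE 0.22), and Zfp36 and Ier2 stood at 0.34 (SE 0.30) and 0.22 (SE 0.29). A fall in Junb of the size seen in endothelial cell-like cells lies outside 2 SE of that value. Here 3 of 10 members had an unadjusted p under 0.05, as had 7.76% of genes, and YAP7d lay below WT without overlap for 3 of 9 members, against 7.16% of genes. Cluster 11 held 68.8 and 43.9% of the class in WT, at most 47.1% in YAP3d and 12.5 to 36.8% in YAP7d, cluster 12 holding the rest, and the summed level of the conventional dendritic cell markers was 2092 to 2683 CPM in WT, 1559 to 3269 CPM in YAP3d and 1147 to 1679 CPM in YAP7d. The part of these values was not tested.

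Whether the changes differed between classes was tested with a class-by-group term and the library as a term. Between YAP7d and WT the changes of 2 of 9 members differed, Egr1 (edgeR adjusted p 0.023) and Junb (edgeR adjusted p 0.034), against 18.0% of 1830 genes, a share close to that of the members. Between YAP7d and YAP3d 2 of 9 did, Fos (edgeR adjusted p 0.037) and Egr1 (edgeR adjusted p 0.047), against 19.1%. With cells thinned to 1000 UMIs 0 members differed in either contrast, and over 24 alternatives the counts ran from 0 to 8 and from 0 to 7. In contrasts of 1 class with the mean of the others, chosen after the values were seen, Fos fell further in endothelial cell-like cells than elsewhere between YAP7d and YAP3d (difference -1.17, SE 0.34, edgeR adjusted p 0.018). Zfp36 did so between YAP7d and WT (difference -1.54, SE 0.47, edgeR adjusted p 0.026) and between YAP7d and YAP3d (difference -1.26, SE 0.42, edgeR adjusted p 0.040). These were 2 of 9 members against YAP3d, where 4.37% of genes were called lower in this way, and 1 of 9 against WT, where 3.33% were. Egr1 fell further in macrophage-like cells between YAP7d and WT (difference -1.80, SE 0.47, edgeR adjusted p 0.014), 1 of 9 members against 2.46% of genes.

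With each class given the same weight in a library, the members were lower in YAP7d than in WT on average, but 0 of 9 passed the test (limma), while 7 of 9 had an unadjusted p under 0.05, all in the lower direction, as had 19.3% of genes in either direction and 4.54% in the lower. Fos changed by -1.25 (SE 0.23, limma adjusted p 0.060), Fosb by -1.22, Egr1 by -1.02, Jun by -0.94, Jund by -0.91, Dusp1 by -0.83, Junb by -0.63, Zfp36 by -0.40 and Ier2 by -0.26. The median of the 9 was -0.91, beside a median of 0.13 over all 1830 genes, of which 0.0546% were called lower. YAP7d lay below WT without overlap for 7 of 9 members, against 9.78% of genes. With the DESeq2 size factors in place of TMM 3 members were called lower by limma, against 0.929% of genes. With a term for the 3 libraries of over 1000 cells 6 were called lower against WT, where 3.01% of genes were, and 7 against YAP3d, where 3.55% were, and with the Gm10709 term 0 members and 0 genes were called lower in both. An exact permutation test of 3 against 2 libraries cannot go below 0.1, which Fos reached.

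Against YAP3d the class-mean changes of YAP7d ran from -0.84 (Egr1) to -0.15 (Ier2), with a median of -0.51 and 0 of 9 called (limma), against 0.164% of genes called lower. An unadjusted p under 0.05 was found for 4 of 9, all in the lower direction, and for 25.4% of genes in either direction and 4.1% in the lower. Between YAP3d and WT 0 of 59 member-class pairs were called by edgeR (0.0% of genes in each class), 4 having an unadjusted p under 0.05, as had 0.846 to 4.07% of genes in the 6 classes. The median class-mean change was -0.24, and 0 of 9 members were called there by limma, 1 having an unadjusted p under 0.05 (Fos, -0.51, SE 0.22), as had 0.71% of genes. That median became -0.021 with the Gm10709 term and 0.033 within the libraries of over 1000 cells. The comparisons of YAP3d and of YAP7d with WT share the same 2 WT libraries, so they are not independent. The p-values measure the spread between these mice, 1 library each.

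The libraries were compared class by class with the mean of the class over all 9 libraries. Of the 54 member-class pairs, 23 were below that mean in WT replicate 1 and 0 in WT replicate 2. In YAP3d replicates 1 to 4 there were 22, 39, 22 and 8 pairs below it, and in YAP7d replicates 1 to 3 there were 48, 43 and 38. The median deviation of WT replicate 2 was 0.22 to 1.05 log2 units over the 6 classes, and that of YAP3d replicate 4 was 0.11 to 1.40, with macrophage-like cells highest. YAP7d replicate 1, with the most pairs below, ran from -1.25 in endothelial cell-like cells to 0.30 in conventional dendritic cell-like cells. YAP7d replicates 2 and 3 ran from -0.84 to -0.08 and from -0.66 to -0.03, so that in some classes they were close to the mean. WT replicate 1 had medians below 0 in 2 classes and YAP3d replicates 1 to 3 in 3, 5 and 1 classes.

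**Figure D4:**
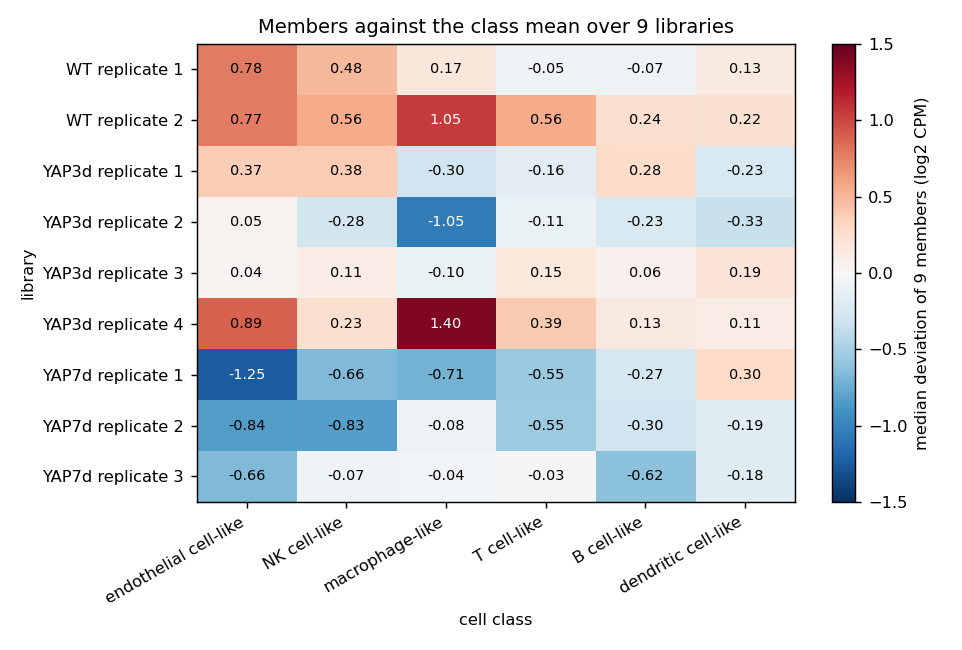
Median deviation of 9 members from their class mean over 9 libraries (log2 CPM, red above and blue below), with libraries in rows and cell classes in columns. WT replicate 2 and YAP3d replicate 4 are above 0 in all 6 classes, YAP7d replicates 2 and 3 are below 0 in all 6 but by as little as -0.08 and -0.03, and macrophage-like cells of YAP3d replicates 2 and 4 stand at -1.05 and 1.40.

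The share of a member's variation within classes that lay between libraries, and not between class and library, was 84.1% for Jund, 62.2% for Fos, 59.9% for Fosb, 48.4% for Jun, 47.4% for Egr1, 47.2% for Junb, 39.7% for Zfp36, 36.2% for Ier2 and 33.7% for Dusp1. The median over all 1830 genes was 37.4%, with quartiles of 26.1 and 51.5%. Jund, Fos and Fosb thus lay above the upper quartile, and Ier2 and Dusp1 lay below the median. The groups were not removed first, so a difference between groups counts here as one between libraries.

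The differences were also taken within libraries of like size, as differences of mean log2 CPM. Within the 3 libraries of over 1000 cells, 1 per group, the median member difference of YAP7d from WT was -1.42 in endothelial cell-like, -0.93 in macrophage-like, -0.90 in B cell-like, -0.84 in NK cell-like, -0.67 in T cell-like and -0.43 in conventional dendritic cell-like cells. Within the 6 smaller libraries it was -2.13, -0.62, -0.00086, -1.28, -0.42 and -0.02 in the same order of classes. Against YAP3d the macrophage-like difference was -1.20 in the large libraries and 0.22 in the smaller ones, so its direction was not the same within both. With a term for Gm10709, which separates YAP3d replicates 1 and 2 and all YAP7d libraries from the rest, the medians of macrophage-like and conventional dendritic cell-like cells between YAP7d and WT were above 0, at 0.50 and 0.34. In the edgeR fits, another measure than the differences of mean log2 CPM above, the median ran over 23 alternatives from -1.81 to -1.04 in endothelial cell-like and from -1.43 to -0.91 in NK cell-like cells.

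At the level of single cells, thinned to 1000 UMIs each, with 105 shallower cells left out, the summed members were lower throughout the distribution in NK cell-like cells. Their median was 8 and 9 UMIs per cell in WT, 8.5, 5, 8 and 6 in YAP3d and 3, 3 and 4 in YAP7d, and the upper quartiles of YAP7d, 4, 5 and 6, lay at or below the medians of 3 of the 4 YAP3d libraries and of WT. In endothelial cell-like cells the medians were 2 and 7 in WT, 2, 2, 2 and 7 in YAP3d and 1, 2 and 2 in YAP7d. The difference there lay in the upper part of the distribution, the 90th percentile being 16 and 18 UMIs in WT, 11 to 18.8 in YAP3d and 5.7, 5.8 and 8 in YAP7d. In B cell-like cells the medians were 8 and 9 in WT and 8, 7 and 6 in YAP7d.

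Classes with under 10 cells in at least 1 library were not tested and are given by the summed members, as CPM without scaling. Such a class need not be small over all libraries, and the monocyte-like clusters held 533, 644 and 300 cells. Neutrophil-like cells had 20846 CPM in the 1 WT library with 10 or more of them, 9881 and 17398 CPM in 2 YAP3d libraries and 5510 CPM in 1 YAP7d library. Monocyte-like cells, in a class whose largest cluster was led by Cx3cr1 together with C1qb and Trem2, had 7372 and 12408 CPM in WT, 6292 to 11966 CPM in 3 YAP3d libraries and 5344 to 6505 CPM in YAP7d. Hepatocyte-like cells, the intended site of the transgene, had the lowest sums of any class, 355.0 to 1309 CPM in 3 YAP3d libraries and 404 to 946 CPM in YAP7d, and no WT library held 10 of them. In WT, B cell-like, NK cell-like, endothelial cell-like and conventional dendritic cell-like cells had 8974, 8689, 8438 and 8007 CPM on average, and the ranges of the 2 libraries overlapped for neighbouring classes.

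Related genes from fixed lists were followed in the same fits. Of 36 other immediate early and early response genes, 26 were tested in endothelial cell-like cells, and 8 fell and 1 rose between WT and YAP7d, with a median of -0.37, where 8.46% of all genes were called lower and 10.1% higher. The falls included Klf4 (-1.56, SE 0.39), Ppp1r15a (-1.49, SE 0.23) and Btg2 (-1.23, SE 0.25). The gene that rose was Myc, a driver of growth and division and itself an early response gene, with 3.48 and 8.10 CPM in WT, 0, 20.1, 4.60 and 10.6 CPM in YAP3d and 65.2, 60.0 and 56.2 CPM in YAP7d, for a log2 change of 3.20 (SE 0.53, edgeR adjusted p 4.1e-04). In NK cell-like cells 5 of 27 fell, against 3.3% of all genes, and 0 rose, the falls being Btg2, Btg1, Irf1, Klf6 and Rhob. These genes were named after their values were seen.

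Of 24 upstream kinases and promoter factors, 17 were tested in endothelial cell-like cells and 1 was called lower (Mapk9), and of 14 further AP-1 family genes 10 were tested and 1 was called lower (Maf). Both counts were near the 8.46% of all genes called lower in that class. In the other 5 classes 0 of the kinases and promoter factors were called by edgeR. Of 14 further phosphatases and ZFP36 family genes 0 of 10 were called in endothelial cell-like cells and 1 of 6 in NK cell-like cells, Zfp36l2 (-0.99, SE 0.28), where 3.3% of genes were called lower. These too were named after their values were seen.

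Over the 54 pairs of class and library, with values centred within classes, Junb had the highest median correlation with the other members (0.78) and Egr1 the lowest (0.54). Among the genes most like the members were Btg2 (0.80), Pnrc1 (0.79), Ier5 (0.78), Ppp1r15a (0.76), Neat1 (0.75), Itm2b (0.75), Klf2 (0.73), Grcc10 (0.72) and Zfp36l1 (0.72). These points come from 9 libraries and share depth and library effects, so the correlations are descriptions.

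Inducible heat shock genes respond to heat and protein damage and are also known to rise on dissociation. Hspa1a and Hspa1b are near-identical copies whose reads may be split uncertainly, and are therefore given as a sum. In YAP7d replicate 1 the sum was between 195 and 915 CPM over the 6 classes. In YAP7d replicates 2 and 3 it was between 0 and 25.7 CPM and between 0 and 32.7 CPM. The low level was seen in all 6 classes of those libraries and not in replicate 1, in which the members were as low or lower in endothelial cell-like, macrophage-like and T cell-like cells. In conventional dendritic cell-like cells the members of replicate 1 stood higher, with a median deviation of 0.30 against -0.19 and -0.18. The same held in B cell-like cells, with -0.27 against -0.30 and -0.62. In NK cell-like cells replicate 1 lay between the others, at -0.66 against -0.83 and -0.07. A count of 0, as in endothelial cell-like cells of replicate 2, allows up to 13.5 CPM at this depth.

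In WT the sum differed between the replicates in every class, from 15.2 to 761 CPM in replicate 1 and from 741 to 2787 CPM in replicate 2. In YAP3d it ran from 49.8 to 2019 CPM. Dnajb1, a co-chaperone of HSP70, fell between WT and YAP7d in endothelial cell-like (-1.36, SE 0.27), NK cell-like (-1.95, SE 0.34) and macrophage-like cells (-2.20, SE 0.44), with edgeR adjusted p of 0.0021, 0.0029 and 0.022. In endothelial cell-like cells it had 143 and 181 CPM in WT and 78.2, 42.9 and 59.9 CPM in YAP7d, so that it was below WT in all 3 YAP7d libraries, replicate 1 included. The constitutive chaperones Hsp90ab1, Hspd1 and Hspe1 rose in endothelial cell-like cells, by 0.70, 1.51 and 0.84, and were named after their values were seen. Of 19 heat shock genes tested there 3 rose and 4 fell, with both Hspa1 copies among the falls, where 10.1% of all genes were called higher and 8.46% lower.

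**Figure D5:**
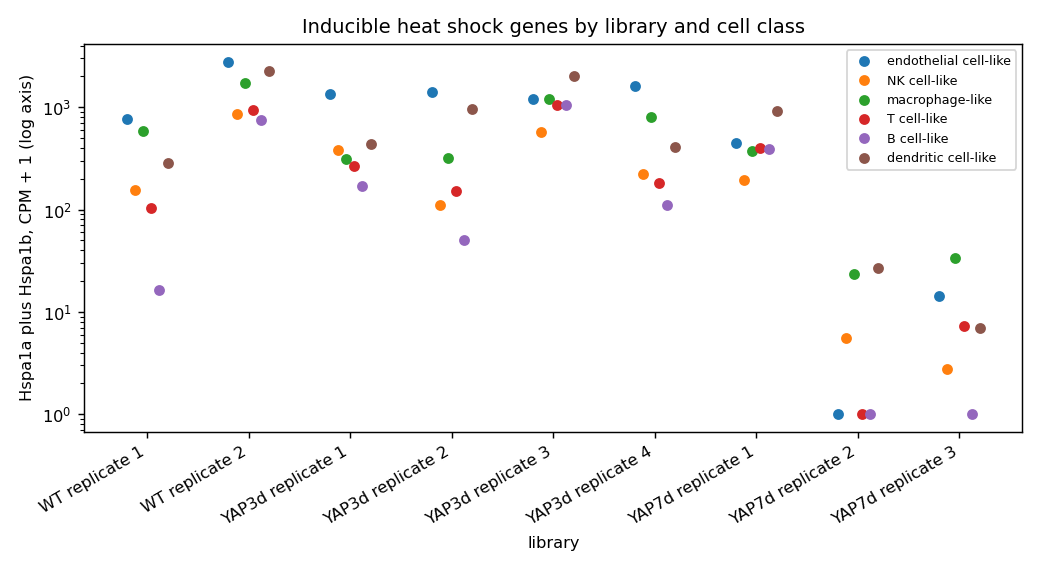
Sum of Hspa1a and Hspa1b (CPM plus 1, log axis) in each library, with 1 point per cell class. YAP7d replicates 2 and 3 lie at or below 32.7 CPM in all 6 classes, and YAP7d replicate 1 lies between 195 and 915 CPM.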

How the data were processed

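Liver cells were profiled with droplet 3′ single-cell RNA-seq. Per the labels and the study's methods, reads were aligned to mm10 and UMI counts made with Cell Ranger, and the authors used Seurat 2. The deposited table holds these counts as integers, with the library in each cell's name. Cells with under 200 genes were left out (35 of 8562). The rest were clustered with scanpy 1.11.5 (30 components, 15 neighbours, resolution 1) without the listed genes, and named from 168 markers, of which 161 were in the table. Scrublet called 60 doublets (0.704%), which were kept. Counts were summed per class and library. Within classes they were tested with edgeR 4.0.16 (quasi-likelihood, filterByExpr, TMM), and class means of log2 CPM (prior count 2) with limma 3.58.1, all with Benjamini-Hochberg adjustment over all genes, a threshold of 0.05 and the library as the replicate. DESeq2 1.42.0 was an alternative. The scripts were tested on simulated data. The members, lists and classes were chosen with earlier results of these data known. All 10 members, Hspa1a, Hspa1b, Dnajb1 and the 10 genes most like the members were to be named (1 of these is not reported here), with up to 3 rises and 3 falls of each other list called between YAP7d and WT on the class mean (none were). Other names are marked in the text as chosen after their values were seen. Alternatives covered scaling, filters, tools, cells, classes, batches and single libraries. The limit given for a count of 0 covers counting error only, whereas the SE of a log2 change comes from the fit over libraries.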

Additional observations from a re-analysis of the deposited data

Results flagged for a closer look

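In the YAP3d group of 4 libraries, 60 combinations of member and class were examined for a library far from the other 3, and 7 were found, where chance gives about 1 in 20. The combinations share the same 4 libraries and are not independent, so the rate cannot show an excess. YAP3d replicate 4 stood high in macrophage-like cells for Atf3 (248 CPM), Fosb (534 CPM), Ier2 (534 CPM) and Junb (1394 CPM), and for Egr1 in T cell-like cells (105 CPM). YAP3d replicate 1 stood high for Fosb in B cell-like cells (378 CPM), and YAP3d replicate 3 for Jun in conventional dendritic cell-like cells (1358 CPM). Fosb and Ier2 had the same count of 219 UMIs in that macrophage-like library.

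Changes that differed between classes by the class-by-group term (edgeR) concerned Junb (adjusted p 0.034) and Egr1 (adjusted p 0.023) for YAP7d against WT. For YAP7d against YAP3d they concerned Fos (adjusted p 0.037) and Egr1 (adjusted p 0.047). With cells thinned to 1000 UMIs 0 members differed in either contrast.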

How the results depend on the processing

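Counts below are of members called, given for YAP7d against WT, then YAP7d against YAP3d, unless said otherwise. On the class mean the counts of 0 and 0 became 3 and 1 with DESeq2 size factors (0.929% and 0.273% of genes called lower). They became 2 and 1 with no filter and 6 and 7 with a term for libraries of over 1000 cells. They were 4 and 1 without B cell-like (0.92% and 0.682%) and 3 and 3 without conventional dendritic cell-like cells (0.634% and 0.686%). Without T cell-like cells they were 2 and 1 (0.381% and 0.49%). For YAP7d against YAP3d the count was 1 without macrophage-like cells (0.162%). Leaving out 1 library gave 0 to 2 in both. Within classes the counts of 15 and 15 became 26 for YAP7d against WT with no filter, 4 and 7 with a Gm10709 term, and for YAP7d against YAP3d 7 with thinned cells and 23 with the term for over 1000 cells. Leaving out 1 library gave 7 to 21 and 10 to 20. Over all genes and classes 2.55% and 2.63% of tests were called lower, 1.47% and 1.51% with no filter, 0.323% and 0.946% with the Gm10709 term, 2.54% with thinned cells and 4.78% with the term for over 1000 cells (both YAP7d against YAP3d), and 1.08 to 3.37% and 1.69 to 3.15% without single libraries. On the class mean the shares were 0.0546% and 0.164%, 3.01% and 3.55% with the term for over 1000 cells, 0.128% and 0.175% with no filter, and 0 to 0.345% and 0 to 0.664% without single libraries. The count of members that differed between classes, 2 and 2, became 4 for YAP7d against WT in cells of 500 genes or more whose mitochondrial share did not pass 10%, 5 with at least 2000 UMIs, 0 and 0 with thinned cells, and 0 for YAP7d against YAP3d at clustering resolution 0.5. It became 1 and 0 without conventional dendritic cell-like, 1 and 0 without endothelial cell-like, 6 and 7 without macrophage-like and 1 and 1 without NK cell-like cells. It became 0 for YAP7d against YAP3d without T cell-like cells, and 1 and 5 in cells without proliferation UMIs, an alternative added after seeing the data. The main fit called 18.0% and 19.1% of genes, and the shares in these alternatives are not given. These counts are therefore not read as results about the members. Leaving out 1 library gave 0 to 8 and 0 to 5, and 0 to 1 for YAP3d against WT, beside 3.59 to 21.1%, 8.41 to 23.2% and 0 to 2.3% of genes.

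The median class-mean change of -0.91 (YAP7d against WT) became -0.66 in thinned cells, -0.47 with the Gm10709 term, -0.65 within the smaller libraries, -0.73 without endothelial cell-like and -0.73 without NK cell-like cells, and -1.06 to -0.61 without single libraries. The median of -0.51 (YAP7d against YAP3d) became -0.20 in thinned cells, -0.27 with the Gm10709 term, -0.82 within the libraries of over 1000 cells, and -0.67 to -0.31 without single libraries. The median of -0.24 (YAP3d against WT) became -0.021 with the Gm10709 term, 0.033 within the libraries of over 1000 cells, and -0.57 to -0.049 without single libraries. Single members with small changes turned direction. For YAP3d against WT, Egr1 stood at 0.074 with the term for over 1000 cells, 0.092 with the Gm10709 term, 0.036 without macrophage-like cells and -0.70 to 0.33 without single libraries. Ier2 stood at 0.00708, 0.00659 and, within the smaller libraries, 0.00722, with -0.37 to 0.16 without single libraries, and Zfp36 at 0.029 and 0.039, with -0.47 to 0.14. Junb ran from -0.57 to 0.071 without single libraries. For YAP7d against YAP3d, Ier2 stood at 0.071 in thinned cells, 0.11 in cells without proliferation UMIs and -0.23 to 0.0027 without single libraries, and Zfp36 ran from -0.55 to 0.00011. For YAP7d against WT, Ier2 ran from -0.52 to 0.011. The cause of these shifts was not tested.

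The replicate numbers do not pair the libraries: correlations of same-numbered libraries were 0.37, 0.36 and 0.33 for number 1, -0.15, -0.52 and 0.099 for number 2 and -0.40 for number 3. Deviations within a group sum to 0, so these correlations are not independent of each other. With the replicate number as a block, 25 members within classes (3.19% of tests called lower) and 6 on the class mean (2.57%) were called for YAP7d against WT, 3 on the class mean (1.58%) for YAP7d against YAP3d (median -0.33), and 8 within classes (0.408%) for YAP3d against WT (median -0.52). Depth limits the small classes: endothelial cell-like cells numbered 23 to 64 per YAP7d library and macrophage-like cells 11 to 67 per YAP3d library.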
